A study of Mus musculus with 3 samples.

Results

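The 40 genes described here act in DNA replication or in mitosis. They are 20 S phase genes and 20 mitosis genes, chosen by name from 31053 genes in the matrices, and are called members below. The S phase members are Mcm2, Mcm3, Mcm4, Mcm5, Mcm6, Mcm7, Pcna, Gins2, Rrm1, Rrm2, Tyms, Cdc6, Cdt1, Ccne1, Ccne2, E2f1, Slbp, Ung, Hells and Pclaf. The mitosis members are Mki67, Top2a, Cdk1, Ccna2, Ccnb1, Ccnb2, Birc5, Ube2c, Cenpe, Cenpf, Tpx2, Bub1, Aurka, Aurkb, Plk1, Kif11, Kif20a, Nusap1, Prc1 and Cdc20. All 40 were found in the matrices.

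Droplet single-cell RNA-seq (10x Genomics) was done on cells released with trypsin from the bladders of wild type mice and of mice with a knockout of Lpar6 or of Cab39l, with red cells taken out on a Ficoll gradient. LPAR6 is a receptor for lysophosphatidic acid and CAB39L is a scaffold protein that binds the kinase STK11. Each group was 1 library made from a pool of 15 mice. Strain, age and sex are not given in the labels, nor is the part of each gene that was deleted. With 1 library per group there is no replicate error and no test of genotype. Intervals are exact 95% intervals that cover counting error only, and a difference between libraries cannot be told apart from a difference between genotypes. Both knockouts were compared with the same wild type library. Unless stated otherwise, 3 values in a row are in the order wild type, Lpar6 knockout, Cab39l knockout.

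The libraries held 8085, 8293 and 9406 cell barcodes and 101977647, 139250807 and 175075246 UMIs (unique molecular identifiers, 1 per captured RNA molecule). A barcode was called urothelial with at least 5000 UMIs, at most 20% mitochondrial UMIs and at least 0.2% of UMIs from the uroplakin genes Upk1a, Upk1b, Upk2 and Upk3a, which encode the plaques of the luminal bladder surface. That gave 3176, 4834 and 5466 urothelial cells, with median UMIs of 22252.5, 26994 and 29960.5. A barcode was called immune when 3 or more of 12 pan-immune genes had a UMI and their sum was at least 0.2% of UMIs and above the uroplakins, which gave 666, 70 and 187 cells. Lpar6 itself had 1080, 0 and 1938 UMIs in urothelial cells, or 13.8, 0 and 12.1 CPM (UMIs of the gene per 1000000 UMIs of those cells). Cab39l was at 112, 94.0 and 31.7 CPM, so its transcript was lower in its own knockout library but still detected. The libraries also differed in other ways. Wild type urothelial cells had a median of 9.02% mitochondrial UMIs against 6.27% and 6.17%, and the summed erythroid markers were at 244, 117 and 50.5 CPM. The basal keratin gene Krt15 was at 1099, 216 and 1127 CPM, so it was low in the Lpar6 knockout library. Secretory genes of the male tract were at 10.5, 2.77 and 304 CPM. The part of these differences in the results below was not tested.

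In a cell that enters the cycle, E2F factors switch on genes that load the MCM helicase on DNA, make deoxynucleotides and build the replication fork. Later, the DREAM and MuvB complexes release and activate a second set, which drives chromosome condensation, spindle assembly and cytokinesis, and many promoters of that set carry a CHR element (cell cycle genes homology region) with CCAAT boxes. The bladder urothelium of an adult mouse is known as a tissue that renews very slowly at rest and divides quickly after injury.

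The promoters of the members held the motif words of these 2 programmes at different shares. In the 250 bases before the RefSeq transcription start (GRCm38.p6), 17 of 20 S phase genes gave 18 promoters and 16 of 20 mitosis genes gave 17. The remaining members (Mcm4, Gins2, Ccne2, Ccna2, Tpx2, Aurkb and Kif20a) were not matched. Words were searched on both strands. E2F-type words (TTTCCCGC, TTTGGCGC, TTTCGCGC or TTTGCCGC) were in 27.8% of S phase and 5.88% of mitosis promoters, and in 1.86% of all 32851 promoters of the table. CHR-type words (TTTGAA or TTTAAA) were in 16.7% of S phase promoters, 70.6% of mitosis promoters and 25.2% of all promoters. CCAAT was in 61.1%, 88.2% and 33.8%, and a CHR-type word together with CCAAT was in 11.1%, 64.7% and 8.78%. The E2F-type words TTTGGCGC and TTTCGCGC can overlap on opposite strands, as they do in Mcm6. These matches describe the letters of the window and do not show a bound factor.

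Promoters of 3 members are shown because the results below turn on them: Mcm6, the member with the largest log2 difference from wild type in the Lpar6 knockout library, Cenpf, the most abundant mitosis member, and Cdk1, 65 of whose 72 Cab39l knockout UMIs came from 7 cells. The 3 windows are chr1:128359706-128359955, chr1:189688087-189688336 and chr10:69352913-69353162, in that order, all on the minus strand and each printed 5' to 3'. Capitals mark the words above, and ATTGG is CCAAT on the other strand.
Mcm6: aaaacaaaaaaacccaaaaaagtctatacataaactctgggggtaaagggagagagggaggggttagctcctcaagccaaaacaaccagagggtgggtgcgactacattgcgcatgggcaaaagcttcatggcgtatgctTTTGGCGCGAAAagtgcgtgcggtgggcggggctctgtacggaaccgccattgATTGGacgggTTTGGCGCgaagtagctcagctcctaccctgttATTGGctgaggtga
Cenpf: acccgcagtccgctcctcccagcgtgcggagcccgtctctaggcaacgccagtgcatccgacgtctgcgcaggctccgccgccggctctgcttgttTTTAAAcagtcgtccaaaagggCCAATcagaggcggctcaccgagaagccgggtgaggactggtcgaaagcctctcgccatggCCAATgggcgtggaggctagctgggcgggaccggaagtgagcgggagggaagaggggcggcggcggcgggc
Cdk1: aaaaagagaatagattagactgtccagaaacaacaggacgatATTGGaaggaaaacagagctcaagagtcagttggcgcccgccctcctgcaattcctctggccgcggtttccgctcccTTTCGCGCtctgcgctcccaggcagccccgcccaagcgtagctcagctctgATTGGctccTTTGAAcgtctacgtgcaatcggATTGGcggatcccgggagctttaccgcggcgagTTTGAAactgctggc
The Mcm6 window held 3 E2F-type words, 102, 98 and 39 bases before the start, and 2 CCAAT words. The Cenpf window held 1 CHR-type word 148 bases before the start and CCAAT words at 127 and 66 bases. The Cdk1 window held all 3 kinds, with CHR-type words 65 and 9 bases and an E2F-type word 123 bases before the start.

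Few urothelial cells held several members at once, and the share was lowest in the Lpar6 knockout library. To remove differences in depth, each urothelial cell was thinned at random to 5000 UMIs, and cells with a UMI of 3 or more members were counted. There were 98 of 3176 wild type cells (3.09%, 2.51 to 3.75%), 67 of 4834 Lpar6 knockout cells (1.39%, 1.08 to 1.76%) and 98 of 5466 Cab39l knockout cells (1.79%, 1.46 to 2.18%). This single thinning was low for both knockouts. Over 20 other thinnings the mean shares were 2.82% (2.28 to 3.47%, interval of the rounded mean count), 1.66% (1.31 to 2.06%) and 2.14% (1.77 to 2.56%). The single thinnings ranged from 2.52 to 3.21% in wild type, 1.34 to 1.86% in Lpar6 knockout and 1.56 to 2.62% in Cab39l knockout. The ranges of wild type and Lpar6 knockout did not overlap, whereas those of wild type and Cab39l knockout did, as did the intervals of their means. Without thinning, 52.9%, 46.9% and 55.2% of cells held 3 or more members, in cells of unequal depth.

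Most of these cells were picked out by S phase members alone. Cells with 3 or more S phase members were 66, 48 and 68, or 2.08%, 0.993% and 1.24%, with means of 2.10%, 1.16% and 1.63% over the 20 other thinnings. Cells with 3 or more mitosis members were 1, 0 and 5, or 0.0315% (0.000797 to 0.175%), 0% (0 of 4834, which allows up to 0.0621%) and 0.0915% (0.0297 to 0.213%). The Cab39l knockout count stayed at 3 to 6 over the 20 other thinnings, against 0 to 1 in each of the other libraries. The intervals of the mitosis shares overlapped in all 3 libraries. At 1900 UMIs per cell, the depth used for immune cells below, the urothelial shares with 3 or more members of any kind were 0.283%, 0.124% and 0.238%. Neutrophil-led wild type cells, which should not divide, held 3 or more members in 1 of 38 cells (2.63%, 0.0666 to 13.8%) at 1900 UMIs, too few cells to set a background share. Those 38 cells had a median of 2771 UMIs before thinning.

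**Figure D1:**
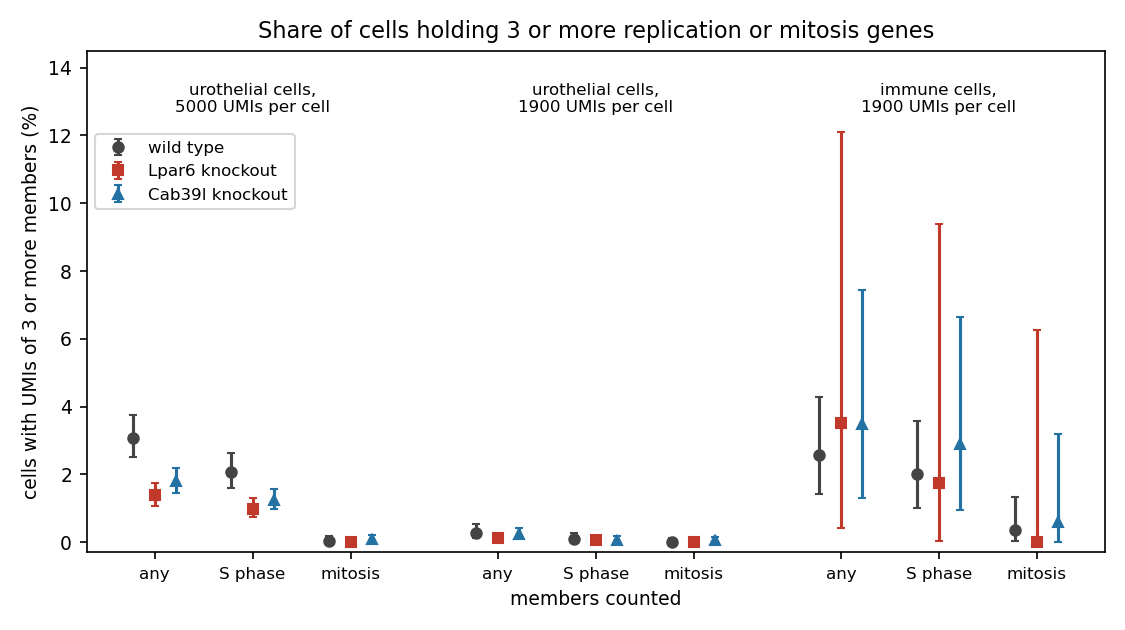
Share of cells (percent, vertical axis) with a UMI of 3 or more of any member, of S phase members or of mitosis members, in 1 thinning per library. Points are libraries and bars are exact 95% intervals. The left block is urothelial cells at 5000 UMIs, where wild type is at 3.09%, Lpar6 knockout at 1.39% and Cab39l knockout at 1.79%. The middle and right blocks are urothelial and immune cells at 1900 UMIs, and the wide bars on the right reflect 57 Lpar6 knockout and 172 Cab39l knockout immune cells.

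The share was also counted apart in cells with and without a UMI of the basal keratin gene Krt15, whose level itself differed between the libraries, so these classes need not hold like cells. Among cells with a Krt15 UMI, 3.11%, 1.17% and 1.62% held 3 or more members in the single thinning. Among cells without one, the shares were 2.94%, 1.57% and 3.37%, from 477, 2618 and 534 cells. The Lpar6 knockout share was the lowest in both classes, while the Cab39l knockout share was above wild type in the class without Krt15, which rests on 18 and 14 cells. The cells with 3 or more members were about as deep as the rest, with medians of 21484, 26053 and 30918 UMIs against 22302.5, 27019 and 29960.5.

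Few genes outside the list set the cells with 3 or more members apart in all 3 libraries. Tyms, which makes thymidylate, was in 46, 31 and 59 of them, and Slbp, which binds histone mRNA ends, in 37, 31 and 46. Rrm1 was in 33, 27 and 25 of them. These are also the 3 most abundant S phase members over all urothelial cells. Of 9939 genes outside the list with at least 20 UMIs in these cells, 1 was at least 2-fold higher than in the other urothelial cells in every library (0.0101%) and 3 were at least 2-fold lower (0.0302%). The 1 higher gene was Cd52, a leukocyte surface antigen, at 20.5, 17.4 and 34.9 CPM against 8.72, 0.43 and 13.5. It rested on single cells: 29 of 30 Cd52 UMIs in Lpar6 knockout and 94 of 104 in Cab39l knockout came from 1 cell each.

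Other S phase genes were slightly higher in the same cells, in part through 7 Cab39l knockout cells with many mitosis members that are described below. Other mitosis genes were above the rest in all 3 libraries about as often as all genes once those 7 cells were left out. The median log2 difference from the rest was 0.41 for other S phase genes and 0.39 for other mitosis genes, against 0.01 over all genes. Of 17 tested genes of a list of 24 other S phase genes, 7 were above the rest in all 3 libraries, and of 18 tested of 30 other mitosis genes, 4 were, beside 16.5% of all 9939 genes. None of either list reached 2-fold in all 3 libraries. Their summed levels in the cells with 3 or more members were 185, 161 and 286 CPM for other S phase genes, against 159, 140 and 134 CPM in the rest. For other mitosis genes the sums were 1233, 1300 and 1834 CPM, against 1205, 1223 and 1213 CPM. Without the 7 cells, which were all among the 98, the Cab39l knockout values were 182 and 1322 CPM. The medians were then 0.22 and 0.14. Above the rest in all 3 libraries were 6 of 16 tested other S phase genes (37.5%) and 2 of 13 other mitosis genes (15.4%), beside 16.5% of all genes.

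The levels of the S phase members over all urothelial cells were modest and were led by nucleotide synthesis and histone mRNA genes. Their sum was 128, 105 and 118 CPM, of which Tyms, Slbp and Rrm1 made up 50.4%, 57.0% and 56.6%. UMI levels are not divided by transcript length, so the order of genes is one of UMIs. Tyms was at 26.1, 27.2 and 29.8 CPM, and the ratio to wild type was 1.04 (0.99 to 1.10) in Lpar6 knockout and 1.14 (1.08 to 1.20) in Cab39l knockout. Tyms was thus not lower in either knockout library. Slbp was at 22.4, 20.9 and 24.7 CPM, close to wild type in both knockouts, with ratios of 0.93 (0.88 to 0.99) and 1.10 (1.04 to 1.17). Rrm1, the large subunit of ribonucleotide reductase, was at 16.2, 11.6 and 12.4 CPM, lower in both knockouts with ratios of 0.72 (0.67 to 0.78) and 0.76 (0.71 to 0.82). With the trend with transcript length described below taken off, the log2 differences of Rrm1 were 0.11 and 0.21. Rrm1 was thus not low beside genes of like length. The partner subunit gene Rrm2, made mainly in S phase, was at 1.47, 0.863 and 1.08 CPM.

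At the replication fork, Pcna, the sliding clamp, was at 12.8, 11.5 and 11.0 CPM. Gins2, a subunit of the GINS complex of the replicative helicase, was at 3.75, 3.58 and 4.02 CPM, with ratios of 0.96 (0.82 to 1.11) and 1.07 (0.93 to 1.24), so no difference was detectable at this depth. The loaders Cdc6 and Cdt1 were at 2.51, 2.17 and 2.28 CPM and at 2.46, 1.36 and 1.99 CPM. Cdt1, like Rrm2, was lowest in the Lpar6 knockout library. Of the members that promote S phase entry, few UMIs were found. E2f1 had 4, 12 and 13 UMIs, Ccne1 12, 11 and 23, and Ccne2 40, 14 and 44, so Ccne2 was at 0.21 of wild type (0.11 to 0.40) in Lpar6 knockout. The uracil glycosylase gene Ung had 19, 16 and 34 UMIs, and Pclaf, whose product binds PCNA, 33, 57 and 78. Hells, a chromatin remodeller, was at 1.89, 0.964 and 0.988 CPM.

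**Figure D2:**
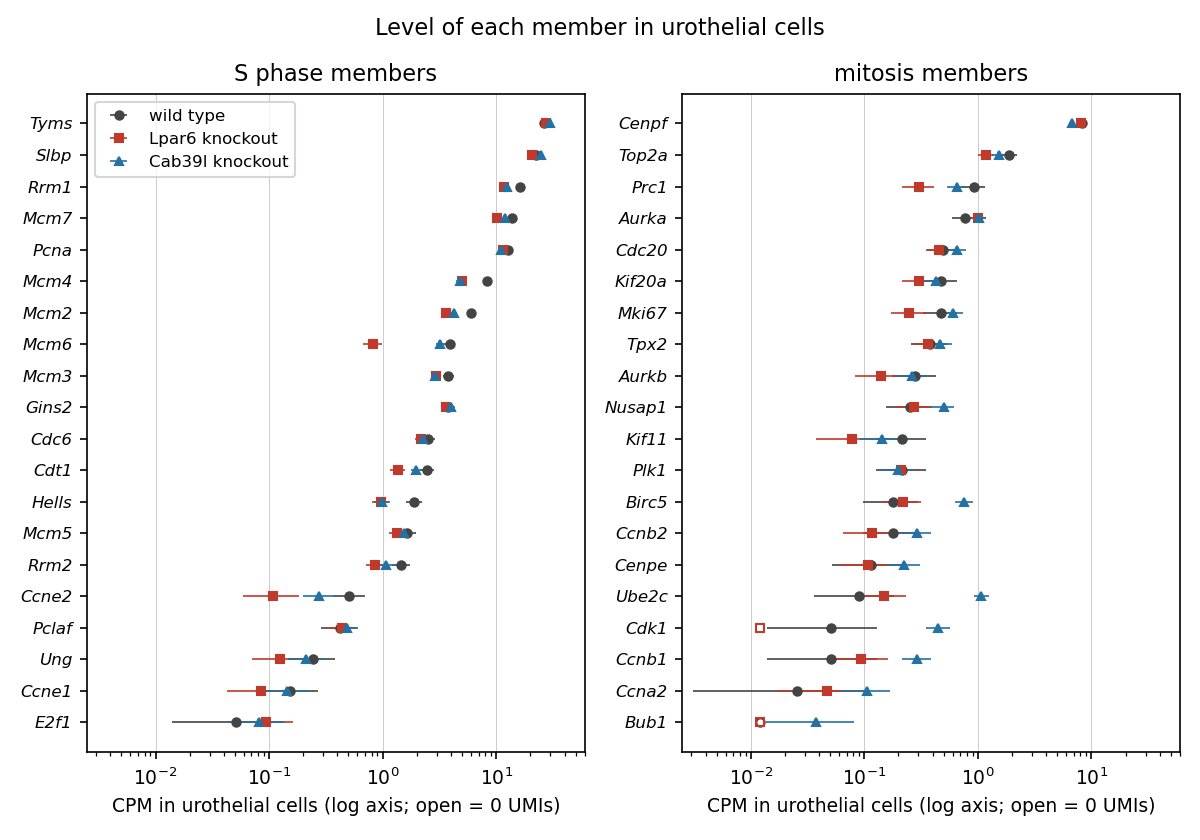
Level of each of the 40 members in urothelial cells (CPM, log horizontal axis), with S phase members on the left and mitosis members on the right. Points are libraries, bars are exact 95% intervals of the count, and open symbols stand for 0 UMIs. The 3 libraries lie close together for Tyms at 26.1 to 29.8 CPM, Mcm6 lies apart in Lpar6 knockout at 0.824 CPM, and Ube2c, Birc5 and Cdk1 lie apart in Cab39l knockout at 1.08, 0.763 and 0.450 CPM.

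Against wild type, how many members passed a 1.5-fold difference depended on the pseudocount, and the S phase members were shifted about as much as all genes. Differences are given as log2(CPM + 1), for genes with at least 20 UMIs over both libraries. In Lpar6 knockout, 35 of 40 members were measured so, of which 0 were at least 1.5-fold higher, beside 1.21% of all 14095 genes. Lower by at least 1.5-fold were 3 members (Mcm2, Mcm4 and Mcm6), beside 23.4% of all genes. With a pseudocount of 0.1 CPM in place of 1 there were 13, beside 33.9% of all genes, with Rrm2, Cdt1, Ccne2, Ung, Hells, Mki67, Top2a, Aurkb, Kif11 and Prc1 added. In Cab39l knockout, 37 members were measured, 1 was higher (Ube2c, beside 0.702% of all genes) and 1 was lower (Mcm4, beside 23.5%). There the smaller pseudocount gave 6 higher, beside 1.97%, and 3 lower, beside 33.8%. The median log2 difference of S phase members was -0.29 in Lpar6 knockout and -0.20 in Cab39l knockout, against -0.27 and -0.23 over all genes. With trimmed-mean scaling, which moves the median of all genes to -0.01 in each knockout, the S phase medians were -0.06 and 0.05, of opposite sign. Without that scaling the mitosis medians were -0.04 and 0.13, and with it they were 0.05 and 0.23. With it, 1 member (Mcm6) was lower in Lpar6 knockout and 0 in Cab39l knockout. The share of all genes called with that scaling was not counted. The members under 20 UMIs were E2f1, Ccna2 and Bub1 in both comparisons, and also Cdk1 and Ccnb1 in Lpar6 knockout.

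The shift of all genes ran with transcript length. Over 4 equal classes of genes from the shortest to the longest the median log2 difference was 0.03, -0.18, -0.40 and -0.60 in Lpar6 knockout and 0.03, -0.14, -0.38 and -0.64 in Cab39l knockout. With that trend taken off, the S phase medians were 0.04 and 0.10 and the mitosis medians 0.22 and 0.44. Most mitosis members were below 1 CPM, where the log2(CPM + 1) scale shrinks differences, so taking off the trend raises the longer ones by construction. The mitosis medians with the trend taken off cannot be read as a rise for that reason. What sets the trend was not tested. After the same step Mcm6 was still at least 1.5-fold lower in Lpar6 knockout, beside 2.57% of all genes. Cenpe and Cenpf, with some of the longest transcripts of the list, were at least 1.5-fold higher, beside 4.32%, but only through this step. Their plain ratios to wild type were 0.95 (0.38 to 2.49, 14 UMIs against 9) and 0.97 (0.88 to 1.08). In Cab39l knockout 6 members (Mki67, Cdk1, Birc5, Ube2c, Cenpe and Nusap1) were then higher, beside 3.41% of all genes, and 0 lower, beside 2.1%. Of the UMIs of these 6 genes in that library, between 36.3% (Nusap1) and 95.9% (Ube2c) came from the 7 cells described below.

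Mcm6 was the member that departed most from its complex. The 6 MCM subunits form a ring with 1 copy of each, the core of the replicative helicase. In wild type urothelial cells Mcm2 to Mcm7 were at 6.04, 3.80, 8.24, 1.64, 3.89 and 13.9 CPM. In Lpar6 knockout they were at 3.59, 2.93, 5.03, 1.33, 0.824 and 10.1 CPM. In Cab39l knockout they were at 4.21, 2.91, 4.76, 1.54, 3.23 and 12.1 CPM. In Lpar6 knockout Mcm6 was at 0.21 of wild type (0.17 to 0.27, 106 UMIs against 305), a log2 difference of -1.42, while the other 5 subunits lay between 0.59 and 0.81 of wild type. In Cab39l knockout Mcm6 was at 0.83 (0.72 to 0.96), within the 0.58 to 0.94 of the other subunits. Mcm6 and Cdk1 are described although they fall outside the rule for named genes, after their values were seen.

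Mcm6 was lowest in Lpar6 knockout in each of the urothelial counts below. Cells with an Mcm6 UMI at 5000 UMIs were 1.89%, 0.538% and 2.05%. Among cells without a Krt15 UMI the level was 2.70, 0.815 and 3.02 CPM, and among cells with one it was 4.10, 0.836 and 3.25 CPM. The Lpar6 knockout value was the lowest in both classes. With the length trend taken off the log2 difference was -0.93. The Mcm6 gene spans chr1:128331590-128359664 on the minus strand (mm10), and its exons overlap no other annotated gene. The 5 measured genes within 500 kb of it had log2 differences between -0.64 and -0.27, of which 1 (Ubxn4) was at least 1.5-fold lower. In immune cells Mcm6 was at 22.3, 40.6 and 40.6 CPM (57, 10 and 40 UMIs), with a log2 difference of 0.84 in Lpar6 knockout, so it was not low there.

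**Figure D3:**
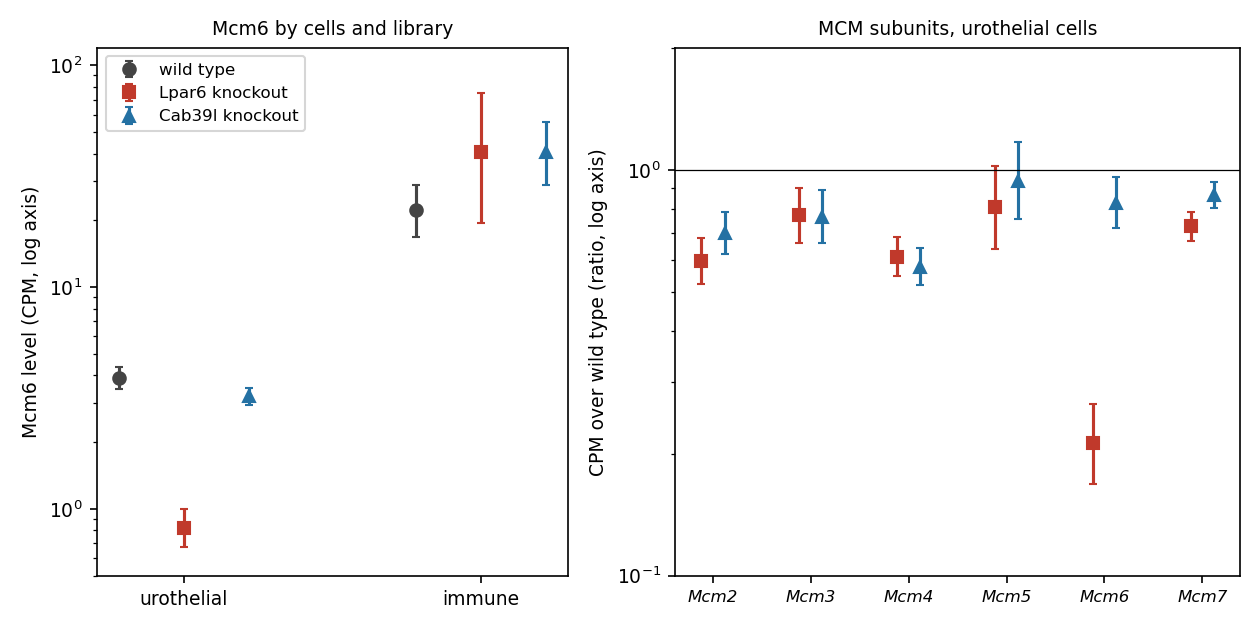
Left, the Mcm6 level (CPM, log axis) in urothelial and immune cells of the 3 libraries. Right, the ratio of each MCM subunit to wild type in urothelial cells (log axis), with a line at equal levels. Bars are exact 95% intervals for counting error. Mcm6 in Lpar6 knockout is at 0.21 of wild type, below the other 5 subunits at 0.59 to 0.81.

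On the log2(CPM + 1) scale, which shrinks differences of low genes, Mcm4 was the 1 member at least 1.5-fold lower in both knockouts, at log2 differences of -0.62 and -0.68, and at -0.23 and -0.31 with the length trend taken off. With trimmed-mean scaling it passed that fold in neither, and with a pseudocount of 0.1 CPM Ccne2 and Hells passed it in both as well. As plain ratios to wild type, Hells was at 0.51 (0.40 to 0.65) and 0.52 (0.42 to 0.66), and Ccne2 at 0.21 and 0.54 (0.34 to 0.85). With the length trend taken off, the log2(CPM + 1) differences were 0.04 and 0.10 for Hells and -0.15 and 0.02 for Ccne2. Mcm2 was lower by 0.62 and 0.43, and Mcm7, the most abundant subunit gene, by 0.43 and 0.19 on the log2 scale. Exons of Mcm7, Gins2, Ccne2, Slbp, Ccna2, Ube2c, Plk1, Kif20a, Nusap1, Prc1 and Cdc20 overlap genes on the opposite strand. The sources used here do not say whether counting used strand. Their UMIs may include those of the neighbour.

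Mitosis members were scarce in urothelial cells, and a single gene made up 40.9 to 60.5% of their UMIs. Their sum was 15.4, 13.4 and 16.4 CPM, of which Cenpf, which encodes a large kinetochore protein, gave 54.1%, 60.5% and 40.9%. Cenpf was at 8.32, 8.11 and 6.71 CPM. Without it the sum was 7.07, 5.29 and 9.70 CPM. Cells with a Cenpf UMI held another mitosis member about as often as cells without one. At 5000 UMIs, 129, 181 and 155 cells had one, and 3.10%, 3.31% and 2.58% of these also had another mitosis member. Among cells without a Cenpf UMI, 3.81%, 2.30% and 2.69% had one of the other 19. In the Lpar6 knockout and wild type libraries Cenpf was higher in cells without Krt15, at 8.95 and 13.5 CPM, than in cells with it, at 7.07 and 7.40 CPM. The values in Cab39l knockout were 7.84 and 6.59 CPM, with intervals that overlapped (6.51 to 9.36 and 6.17 to 7.02).

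The other mitosis members were each at about 2 CPM or less. Top2a, the topoisomerase that untangles chromosomes, was at 1.90, 1.18 and 1.53 CPM. Aurka, a kinase of the spindle poles, had 61, 129 and 163 UMIs, and Prc1, which bundles midzone microtubules, was at 0.917, 0.303 and 0.650 CPM. Prc1 was low in Lpar6 knockout, at 0.33 of wild type (0.22 to 0.49, 39 UMIs against 72). Cdc20, an activator of the anaphase-promoting complex, had 39, 59 and 104 UMIs, and Mki67, the proliferation antigen Ki-67, had 37, 32 and 96. Bub1, a spindle checkpoint kinase, had 0, 0 and 6 UMIs, and Ccna2, the cyclin of S phase and G2, had 2, 6 and 17. Ccnb1, a cyclin that partners Cdk1, had 4, 12 and 47 UMIs. The other 8 (Ccnb2, Cenpe, Tpx2, Aurkb, Plk1, Kif11, Kif20a and Nusap1), which encode a mitotic cyclin, kinases, kinesins and spindle proteins, had between 9 and 80 UMIs in each library.

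In the Cab39l knockout library Ube2c was the 1 member at least 1.5-fold higher, while Birc5 and Cdk1, which also had more UMIs than in wild type, did not pass on the log2(CPM + 1) scale, at 0.58 and 0.46. Ube2c, the ubiquitin-conjugating enzyme of the anaphase-promoting complex, had 7, 19 and 172 UMIs, or 0.0892, 0.148 and 1.08 CPM, a ratio to wild type of 12.1 (5.73 to 30.4) in Cab39l knockout. Birc5, which encodes survivin of the chromosomal passenger complex, had 14, 28 and 122 UMIs, a ratio of 4.28 (2.45 to 8.05). Cdk1, the kinase that drives mitotic entry, had 4, 0 and 72 UMIs, a ratio of 8.83 (3.30 to 33.3). Most UMIs of these 3 genes came from the same few cells.

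In Cab39l knockout, 7 of 5466 urothelial cells (0.128%, 0.0515 to 0.264%) held 10 or more mitosis members. Without thinning they held 20, 20, 14, 11, 10, 10 and 10 of the 20 mitosis members. The next highest cell held 6, and the highest in wild type and Lpar6 knockout held 4 and 3. No wild type cell (0 of 3176, which allows up to 0.0945%) and no Lpar6 knockout cell (0 of 4834, which allows up to 0.0621%) held 10 or more. The exact interval for wild type reaches 0.116% and that for Lpar6 knockout 0.0763%, so both overlap the Cab39l knockout interval. The 7 cells were chosen for their mitosis members after the values were seen, and their levels are a description.

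**Figure D4:**
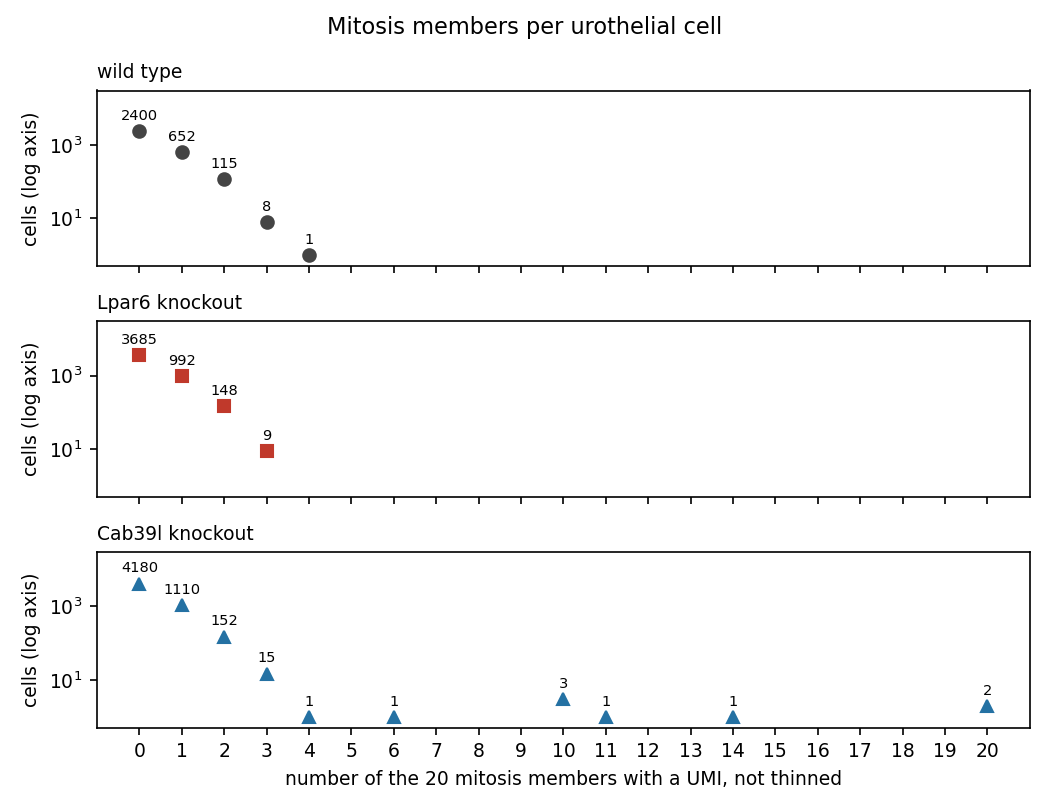
Number of urothelial cells (log vertical axis, number printed above each point) by how many of the 20 mitosis members had a UMI, without thinning, in each library. In wild type the highest cell held 4 members and in Lpar6 knockout 3, whereas 7 Cab39l knockout cells held 10 to 20.

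The 7 cells were deep, with 23508 to 65114 UMIs and a median of 48840, against 29940 in the other Cab39l knockout urothelial cells. Cells at least as deep as the shallowest of the 7 numbered 1454, 3257 and 3420 in the 3 libraries, and cells at least as deep as their median 141, 94 and 430. Cab39l knockout thus had the most cells of that depth. At equal depth of 5000 UMIs, 5 Cab39l knockout cells held 3 or more mitosis members, and 0 did once these 7 were left out. The 2 cells with all 20 members had 390 and 263 mitosis UMIs, and the other 5 had 16 to 42.

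These 7 cells supplied most UMIs of several mitosis members. They held 0.211% of the library's urothelial UMIs, 29.7% of its mitosis member UMIs and 46.1% of those without Cenpf, but 1.54% of its S phase UMIs. Of Ube2c they held 165 of 172 UMIs, all in the 2 cells with 20 members, of Cdk1 65 of 72, of Birc5 92 of 122 and of Ccnb1 30 of 47. By contrast they held 65 of 1073 Cenpf UMIs, 12 of 163 Aurka UMIs and 4 of 68 UMIs of Kif20a, a kinesin of cytokinesis. Without them the mitosis level apart from Cenpf was 5.24 CPM in Cab39l knockout, against 7.07 in wild type and 5.29 in Lpar6 knockout. The mitosis median became -0.07 on the log2 scale, and 0 members were then at least 1.5-fold higher.

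**Figure D5:**
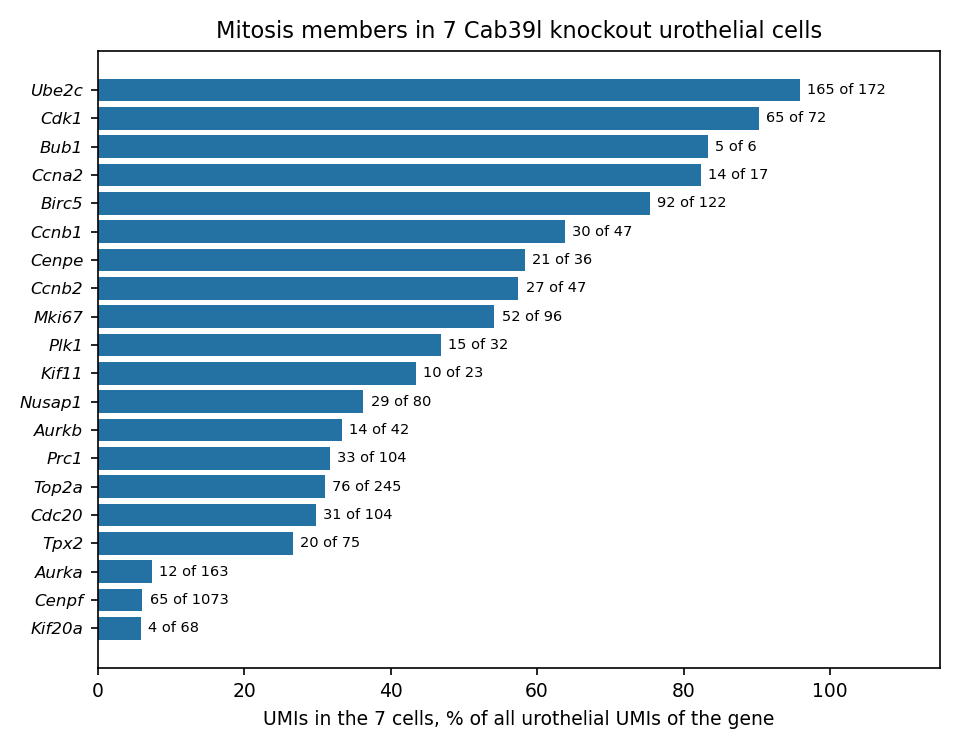
Percent of each mitosis member's urothelial UMIs in the Cab39l knockout library that came from the 7 cells with 10 or more mitosis members, with the numbers of UMIs beside the bars. The share runs from 165 of 172 for Ube2c to 65 of 1073 for Cenpf and 4 of 68 for Kif20a.

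Summed over these cells, most other replication and mitosis genes were also high. Of 23 tested other S phase genes, 17 were at least 2-fold higher than in the other Cab39l knockout urothelial cells, and of 26 other mitosis genes 21 were, beside 1.87% of all 13483 genes. Of 13 G1 cyclins, kinases and pocket proteins 0 were, and of 10 cell cycle inhibitors 1 was (Cdkn2d). Cdca3, a mitotic entry gene, and Cenpa, the centromeric histone, were each at 175 CPM against 1.37 and 1.38 CPM. The histone and tubulin genes Hist1h2ap, Tuba1b and Tubb5 were at 148, 338 and 812 CPM against 2.57, 58.6 and 147. The chromatin gene Hmgb2 was at 501 CPM against 74.4. The 2 cells with all 20 mitosis members held 51 and 79 of its 169 UMIs, so these sums need not hold for each cell.

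Summed over the 7 cells, the marker profile was uroplakin-rich and basal-poor, but not in each cell. Upk3a was at 7783 CPM (7489 to 8087) against 5462 in the other cells, and Psca, an intermediate and superficial cell gene, at 2492 (2326 to 2666) against 1295. Krt4 and Krt13, listed beside Psca as intermediate cell genes, did not follow it, at 38.5 against 79.1 CPM and 0 against 0.73 CPM. The urothelial keratin genes Krt7 and Krt18 were lower too, at 1384 against 2493 CPM and 2459 against 2944 CPM. Krt5 was at 113 CPM (79.7 to 155) against 322, and Krt15 at 258 (206 to 318) against 1129. A single cell, with 46041 UMIs, held 60 of the 87 Krt15 UMIs. Its uroplakins were at 0.788% of UMIs, below the median of 0.947% in the other cells. Another cell, with 3.94% uroplakin UMIs, held 561 of the 2627 Upk3a UMIs. Krt20, the umbrella cell keratin gene, was at 5.93 CPM (2 UMIs) against 32.1. The lists of B, T or NK, neutrophil, fibroblast, endothelial and smooth muscle markers were at 0 UMIs in all 7. The macrophage or dendritic list was at 302 CPM against 291 in the other cells, with 7 of its 9 genes at 0, the pan-immune list at 32.6 against 43.8 CPM, the erythroid list at 2.96 against 50.6 CPM and the male tract list at 62.2 against 304 CPM. None of the 7 shared a barcode with another library. Whether any of the 7 was a doublet was not tested, since the doublet caller did not work in these libraries.

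S phase members were high in some cells of 2 libraries. Urothelial cells with 15 or more of the 20 S phase members, without thinning, numbered 1, 0 and 5, or 0.0315%, 0% and 0.0915%. The wild type cell held 17 S phase and 2 mitosis members. A wild type barcode outside the gate held all 20 S phase and 5 mitosis members in 19102 UMIs. It had 1.03% uroplakin UMIs and was left out for 24.9974% mitochondrial UMIs. The wild type count thus depends on the mitochondrial limit. Of the 5 Cab39l knockout cells, 3 were among the 7 described above, and the other 2 held 18 and 15 S phase members beside 6 and 2 mitosis members.

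Immune cells carried more UMIs of both sets per 1000000 UMIs than urothelial cells. At 1900 UMIs, 14 of 545 (2.57%, 1.41 to 4.27%), 2 of 57 (3.51%, 0.428 to 12.1%) and 6 of 172 (3.49%, 1.29 to 7.44%) held 3 or more members, against 0.283%, 0.124% and 0.238% of urothelial cells. The intervals of the cell classes did not overlap in this single thinning, and the 3 immune intervals overlapped one another. Over 20 other thinnings 0 to 3 Lpar6 knockout immune cells held 3 or more members, and at the rounded mean of 1 cell the interval (0.0444 to 9.39%) overlapped that of urothelial cells. In that library the cell classes could therefore not be told apart. Left out were 121, 13 and 15 shallower immune cells. The make-up of the immune cells differed between the libraries: those led by T or NK cell markers were 218, 12 and 26, by B cell markers 165, 22 and 100, and by macrophage or dendritic markers 174, 24 and 53. Neutrophil-led cells were 60, 1 and 0, and cells led by no list 49, 11 and 8. Without neutrophil-led cells the immune shares at 1900 UMIs were 2.56%, 3.57% and 3.49%. Among cells led by T or NK markers, 8 of 185, 1 of 11 and 2 of 24 held 3 or more members. Among those led by B cell markers there were 2 of 138, 0 of 19 and 2 of 94. Among those led by macrophage or dendritic markers there were 3 of 163, 1 of 19 and 2 of 51.

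In immune cells the helicase genes stood beside Slbp at the top of the S phase members. Their sum was 279, 317 and 377 CPM, with Slbp at 64.9, 56.9 and 69.0 CPM. Mcm7 was at 17.6, 36.6 and 33.5 CPM, Mcm3 at 19.6, 32.5 and 25.4, and Mcm5 at 17.2, 16.2 and 27.4. Pcna was at 23.5, 12.2 and 17.2 CPM. Tyms, first in urothelial cells, was at 11.7, 12.2 and 16.2 CPM. The Lpar6 knockout values rest on 3 to 14 UMIs each. In that library 15 members were measured, 5 at least 1.5-fold higher and 5 lower, beside 11.6% and 28.9% of all genes. In Cab39l knockout 20 were measured, 10 higher and 0 lower, beside 7.57% and 23.2%. These counts are over all immune cells, and the part of their unlike make-up in them was not tested.

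The mitosis members of immune cells summed to 64.9, 52.8 and 113 CPM, and here too a few cells carried much of the signal. Over the 3 libraries together Top2a led, at 12.9, 8.12 and 19.3 CPM, then Mki67, at 6.26, 8.12 and 12.2 CPM. Birc5 was at 3.91, 4.06 and 10.1 CPM, and Ube2c at 4.30, 4.06 and 9.13 CPM. The Lpar6 knockout values of these genes rest on 1 or 2 UMIs each, of 13 over all its mitosis members. There Top2a had 2 UMIs, as did Mki67, Cenpf and Prc1. Aurkb, Cenpf and Ccnb2 had 17 UMIs each over the 3 libraries. In Cab39l knockout, 2 of 187 immune cells held 10 or more mitosis members and 68.5% of the mitosis UMIs, and in wild type 1 of 666 cells held 27.7%. Without these 3 cells the sums were 47.1, 52.8 and 36.6 CPM. These cells were chosen for their mitosis members, and 2 of the 3 came from Cab39l knockout, so its sum had to fall. The Lpar6 knockout sum rests on 13 UMIs (28.1 to 90.3 CPM), so the order of the 3 sums cannot be read. The 2 Cab39l knockout cells also held 22.3% of that library's immune S phase UMIs. They were led by B cell and by T or NK cell markers, and the wild type cell by T or NK cell markers.

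Of the D cyclin genes, which act in G1, Ccnd1 and Ccnd2 were lower in both knockouts and Ccnd3 did not pass 1.5-fold in either. The trend with transcript length described above was not taken off these values or those of the other S phase and mitosis genes below. The part of that trend in them was not tested. Of 13 measured G1 cyclins, kinases and pocket proteins, 5 were at least 1.5-fold lower in each knockout, beside 23.4% and 23.5% of all genes, and 0 were higher, with medians of -0.53 and -0.52 against -0.27 and -0.23 over all genes. The cyclin gene Ccnd2 was at 155, 78.4 and 96.2 CPM and Ccnd1 at 53.5, 25.2 and 33.1. Ccnd3 was at 35.7, 32.5 and 31.2 CPM, with log2 differences of -0.13 and -0.19, while Cdk4, the kinase they activate, was at 72.4, 79.5 and 85.6 CPM. Of the inhibitors, Btg2 was at 311, 158 and 147 CPM, Cdkn1b (p27) at 44.4, 28.0 and 23.1, and Cdkn2a at 1.40, 3.76 and 2.12. Of 10 measured inhibitors, 2 were lower in each knockout, a share near the 23.4% and 23.5% of all genes. In Lpar6 knockout 1 (Cdkn2a) was higher, beside 1.21% of all genes.

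Other S phase and mitosis genes lay closer to wild type than all genes did. Of 23 other S phase genes measured in Lpar6 knockout 3 were lower (Nasp, Clspn and Atad2), and of 24 in Cab39l knockout 4 were, among them Atad2, Usp1 and Clspn, with medians of -0.07 and -0.03. Of other mitosis genes 3 of 26 and 3 of 29 were lower, with medians of -0.09 and -0.03. Beside these counts, 23.4% and 23.5% of all genes were lower. None of the other mitosis genes was higher, beside 1.21% and 0.702% of all genes. The condensin gene Smc4 was at 20.4, 11.4 and 11.5 CPM. The most abundant of that list, Tubb4b, was at 476, 496 and 482 CPM and Stmn1 at 285, 272 and 277, so these differed little between the libraries.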

How the data were processed

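The authors deposited raw UMI counts per gene and barcode for each of 3 libraries, made with Cell Ranger 3.0.2 on mm10, per the submitters' processing notes. The annotation release and settings are not given in the sources used here. No normalization was applied in the deposited counts.

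The 40 members and all lists were chosen with earlier results of these data known. Cells were gated as given above, and immune cells also needed at least 500 genes and at most 20% mitochondrial UMIs. An immune cell was led by the marker list with the largest sum and at least 2 UMIs. Cst3 was left out of the macrophage list after it was seen in urothelial cells at 246 to 294 CPM. Cells were thinned without replacement, with 1 seeded draw as the reported value. UMIs were summed over cells and given as CPM. Shares have exact Clopper-Pearson, levels exact Poisson and ratios exact binomial intervals. A count of 0 allows 3 counts of the total. Log2 differences used a pseudocount of 1 CPM. No p-value was computed. Named genes were the 8 most abundant members of each arm, members 1.5-fold from wild type in both knockouts, the 6 most abundant per arm in immune cells, and leading genes of the other lists.

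Scrublet (scanpy 1.11.5) marked 1, 0 and 0 barcodes and has not worked, so doublets were kept and an alternative left out the top 6% of scores. Libraries shared 19, 16 and 18 barcodes in pairs, and 0 in all 3. Transcript lengths came from GENCODE vM21, in which 31011 of 31053 gene identifiers were found. The fold counting was tested on simulated data: at least 94.1% of the genes changed there by 2-fold or more were called in either comparison. That share cannot be carried over to members with few UMIs, because the log2 scale used shrinks differences of low genes. In Cab39l knockout, Birc5 and Cdk1 had ratios to wild type of 4.28 and 8.83. Their log2 differences were 0.58 and 0.46, so neither was called. Python 3.11.15, numpy 2.4.6, scipy 1.17.1 and pandas 2.3.3 were used.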

Additional observations from a re-analysis of the deposited data

Results flagged for a closer look

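For 2 S phase members, the Lpar6 knockout differed from wild type in opposite directions in urothelial and immune cells, and the difference between the cell classes was not tested. Mcm6 had a log2 difference of -1.42 in urothelial cells and 0.84 in immune cells, the latter from 10 Lpar6 knockout UMIs. Mcm2 had -0.62 in urothelial cells and 1.15 in immune cells, the latter from 5 UMIs. Both are log2(CPM + 1) values, and 14 members had at least 20 UMIs in both classes.

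Barcodes that passed neither gate also held members, in data outside the comparisons above. At 1900 UMIs, 3 or more members were held by 9 of 2541 such barcodes in wild type (0.354%, 0.162 to 0.671%), 6 of 1703 in Lpar6 knockout (0.352%, 0.129 to 0.765%) and 4 of 2192 in Cab39l knockout (0.182%, 0.0497 to 0.467%). They are given because each share was above what a count of 0 allows (0.118%, 0.176% and 0.137%), which any count of 4 or more meets. In both knockouts the lower limit of the interval was below that. The intervals overlap between the libraries. A wild type barcode among them, left out for 30.8% mitochondrial UMIs, held 14 of the 20 mitosis members in 15712 UMIs, more than any gated wild type urothelial cell, and another with 4038 UMIs held 12.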

How the results depend on the processing

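Counts below are of alternatives per library or comparison. Of 153 urothelial shares under other settings, 92 lay within the interval of the reported value and 61 did not, and of 99 immune shares, 78 and 21. Wild type was the highest and Lpar6 knockout the lowest urothelial share of any member in each setting except no thinning and 5 or more members (wild type not highest) and 2 or more members (Lpar6 knockout not lowest). No paired analysis was possible because each group has 1 library, which also leaves no replicate to leave out.

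Urothelial shares of any member, in the order wild type, Lpar6 knockout, Cab39l knockout, were 0.283%, 0.124% and 0.238% at 1900 UMIs, 13.7%, 8.09% and 10.3% at 10000 UMIs, 52.9%, 46.9% and 55.2% without thinning, 15.8%, 11.3% and 11.3% with 2 or more members, 0.535%, 0.124% and 0.402% with 4 or more, 0.0630%, 0% and 0.110% with 5 or more, and 4.35%, 2.30% and 2.54% with 3 UMIs in place of 3 members. The highest of 20 other thinnings gave 1.86% in Lpar6 knockout and 2.62% in Cab39l knockout. For S phase members these were 0.0945%, 0.0621% and 0.0732%, then 10.5%, 5.78% and 8.14%, then 47.0%, 39.5% and 49.8%, then 13.1%, 9.08% and 9.39%, then 0.283%, 0.0207% and 0.274%, then 0%, 0% and 0.0549%, then 3.24%, 1.63% and 1.88%, with 1.47% and 1.96% as the highest and 1.63% as the Cab39l knockout mean of 20 thinnings. For mitosis members, wild type was at 0% at 1900 UMIs, with 4 or 5 or more members, with at most 10% mitochondrial UMIs, and as the lowest and the mean of 20 thinnings. Without thinning the mitosis shares were 0.283%, 0.186% and 0.439%. With 2 or more mitosis members wild type was at 0.283% and Lpar6 knockout at 0.165%, with 3 UMIs Lpar6 knockout was at 0.103% and Cab39l knockout at 0.220%, and without the 7 cells Cab39l knockout was at 0%.

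Immune shares of any member were 7.06% in wild type at 3000 UMIs, 8.26% in wild type and 11.2% in Cab39l knockout without thinning, 11.4%, 12.3% and 9.30% with 2 or more members, and 1.28% in wild type and 0% in Lpar6 knockout with 4 or more. Those of S phase members were 4.91% in wild type, 6.16% and 9.63%, then 8.26%, 10.5% and 9.30%, then 0.917% and 0% in the same settings. The Lpar6 knockout value was 0% in the lowest thinning for both and at 1000 UMIs for S phase members. The Cab39l knockout mitosis share was 0% at 1000 UMIs and with 4 or more members.

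Of the median differences, 9 of 40 alternatives turned sign. The mitosis median of Lpar6 knockout was 0.052 with trimmed-mean scaling, 0.054 with median-of-ratios scaling and 0.22 without the length trend. The S phase median of Lpar6 knockout was -0.064 and -0.053 with the 2 scalings, 0.045 without the trend, -0.46 with a pseudocount of 0.1 and -0.40 with at least 50 UMIs. The S phase median of Cab39l knockout was 0.054, 0.065 and 0.10 with the 2 scalings and without the trend. Its mitosis median was 0.23 with median-of-ratios scaling, 0.31 with a pseudocount of 0.1, 0.44 without the trend, -0.061 without cells holding 3 or more members and -0.069 without the 7 cells. The pair of scalings moved the median of all genes from -0.27 and -0.23 to within 0.01 of 0. The number of members at least 1.5-fold lower in Lpar6 knockout was 1 with either scaling, without the trend and without cells holding 3 or more members, and 13 with a pseudocount of 0.1, and 2 were higher without the trend. In Cab39l knockout 3 were higher with either scaling, 6 with a pseudocount of 0.1 or without the trend, 2 without the top 6% of doublet scores, and 0 with means of per-cell CPM, without cells holding 3 or more members or without the 7 cells. There, 0 were lower with either scaling or without the trend and 3 with a pseudocount of 0.1. Shares over all genes were counted only for the reported setting, the pseudocount of 0.1 and the length trend. Beyond what the construction of a setting shows, the cause was not tested. Depth limits the mitosis members most: 10, 9 and 2 of 20 had under 20 UMIs in urothelial cells.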
